A study of Mus musculus with 20 samples.

Results

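Tuba1a, Tuba1b and Tuba1c are 3 alpha-tubulin genes of the 10625 genes tested, each with probes that the array platform's annotation lists under that gene alone. Tuba3a and Tuba8 also have such probes and are described further on. Tuba1a, Tuba1b and Tuba1c were selected on measured values, since their late change in heated cells was already known when they were picked. The values of these 3 genes are therefore given as a description with no p-value. The genes were read by 8 probes: 3 for Tuba1a, 1 for Tuba1b and 4 for Tuba1c. All 8 passed the filter on missing values and 7 had a value on every array. The RNA came from mouse fibroblasts, described by the labels as a cell line, that lack heat shock factor 1 (HSF1 -/-, called KO here) or carry it (HSF1 +/+, called WT here). Each genotype was measured after 0.5, 1, 2, 3, 4, 6 and 8 h of heat shock on 1 array per time, and before heat shock (0 h) on 3 arrays, which makes 20 arrays in all. How HSF1 was lost, the number of clones, the strain and age of the animals, the temperature and any recovery time are not stated by the labels. For the tests, the heated arrays of each genotype were taken as a late window (n = 4, at 3, 4, 6 and 8 h) and an early window (n = 3, at 0.5, 1 and 2 h). Only 0 h was repeated, so the spread within a window includes change over time.

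Alpha-tubulin pairs with beta-tubulin to form the subunit from which microtubules are built, the tracks for transport and the spindle of dividing cells. Cells hold several nearly identical alpha-tubulin genes. New tubulin chains are folded by the chaperonin CCT, the prefoldin complex and tubulin cofactors, and free tubulin subunits lower the stability of tubulin mRNA. HSF1 is a transcription factor that heat activates and that turns on genes for chaperones. Tuba1a is the alpha-tubulin best known from developing neurons, while Tuba1b and Tuba1c are expressed in many dividing cells. All 3 genes lie on mouse chromosome 15 (GRCm38.p6), Tuba1b at chr15:98931429-98934390, Tuba1a at chr15:98949847-98953501 and Tuba1c at chr15:99029891-99038105. Tuba1a and Tuba1b lie on the minus strand and Tuba1c on the plus strand.

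The 250 bases before each annotated start are shown because the probes of the 3 neighbouring genes moved together in the arrays and because HSF1 is known to bind repeats of the letters GAA and TTC. The sequences are from RefSeq (GRCm38.p6), 5′ to 3′ on the strand of the gene, at chr15:98953502-98953751 for Tuba1a (minus), chr15:98934391-98934640 for Tuba1b (minus) and chr15:99029641-99029890 for Tuba1c (plus). Capitals mark every match to a searched motif.
Tuba1a: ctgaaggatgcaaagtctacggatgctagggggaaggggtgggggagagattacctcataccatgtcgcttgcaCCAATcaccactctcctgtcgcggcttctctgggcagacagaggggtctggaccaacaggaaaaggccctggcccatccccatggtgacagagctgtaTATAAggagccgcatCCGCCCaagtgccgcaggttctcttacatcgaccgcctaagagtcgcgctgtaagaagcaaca
Tuba1b: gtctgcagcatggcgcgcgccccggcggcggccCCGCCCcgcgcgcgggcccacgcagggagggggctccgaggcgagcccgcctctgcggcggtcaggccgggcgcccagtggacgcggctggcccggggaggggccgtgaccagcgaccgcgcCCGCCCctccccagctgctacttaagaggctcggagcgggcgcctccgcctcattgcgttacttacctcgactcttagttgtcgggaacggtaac
Tuba1c: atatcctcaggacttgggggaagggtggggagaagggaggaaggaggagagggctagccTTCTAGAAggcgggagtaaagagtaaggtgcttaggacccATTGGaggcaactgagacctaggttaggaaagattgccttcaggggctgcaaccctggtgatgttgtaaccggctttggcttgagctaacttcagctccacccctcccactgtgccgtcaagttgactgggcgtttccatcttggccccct
The motifs searched on both strands were GAANNTTC and TTCNNGAA (a pair of heat shock units facing inward or outward), GAANNTTC followed directly by NNGAA (a heat shock element of 3 units, which contains both pairs), CCAAT and GGGCGG (the GC box). TATAA was searched on the gene's strand. Tuba1c held TTCNNGAA once, 191 bases before its start, a match found in 7.166% of 32851 RefSeq promoters of this length. GAANNTTC (6.694% of promoters) and the element of 3 units (0.4657%) had no match in the 3 windows. Tuba1a held CCAAT at 176 bases, TATAA at 78 bases and the reverse of the GC box at 63 bases before its start. Tuba1b held the reverse of the GC box at 217 and 95 bases, and Tuba1c held the reverse of CCAAT at 151 bases. CCAAT was found in 33.85%, the GC box in 32.74% and TATAA in 16% of promoters. The GC content was 56.8% in Tuba1a, 75.6% in Tuba1b and 55.6% in Tuba1c, against a median of 52.4% over all promoters. A match describes these letters only.

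The arrays were hybridised with 2 dyes, the sample in Cy5 and a common pool of fibroblast mRNA, heated for 1 h and unheated, in Cy3. The values are log ratios of sample over pool, treated as log2, and each array was centred on its median. The base is not stated. Base 10 cannot give the largest absolute value, 10.2, since 16-bit signals allow at most 4.82, but natural logarithms are possible, in which case the true folds exceed those printed. Arrays held 39037 to 42220 values, and their number limits the precision. Hsf1 itself had 0 probes listing it alone and was not analysed here. The HSP70 chaperone gene Hspa1a, a known HSF1 target, stood -0.24 to 0.21 from its 0 h mean on the KO arrays of 3 to 8 h, and 5.03 to 6.40 above it on the WT arrays, which matches the labels. A gene's value averaged its probes after the mean of each probe over the arrays was subtracted. A model over 6 groups (limma) gave differences with their standard errors (SE), and a call is an adjusted p under 0.05 over all genes. Nothing in the labels tells whether separate cultures lie behind the 3 arrays of 0 h, so a p-value measures only the spread between arrays, which may be technical, and genotype cannot be told apart from other differences between the cell lines. A log ratio to a pool of fibroblast mRNA gives no absolute level, so the fibroblast label could not be checked by the presence of its markers.

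Unheated KO and WT cells were compared first. The centred log2 ratio of the Tuba1b probe (7244) was 2.69, 2.25 and 2.57 on the 3 KO arrays, against 2.53, 2.49 and 3.07 on the 3 WT arrays. These ranges overlapped, as they did for the gene values of Tuba1a and Tuba1c. The log2 difference, KO minus WT, was -0.35 ± 0.28 (SE, n = 3 against 3) for Tuba1a, -0.20 ± 0.34 for Tuba1b and -0.09 ± 0.31 for Tuba1c. Its sign was not stable. It was 0.21 for Tuba1b and 0.31 for Tuba1c under quantile normalization, and 0.22 and 0.25 under scaling of array width. No member was called, where 6.64% of all genes were (705 genes). Of the 8 probes 1 was called lower, a share near that of all probes given below, and it was singled out by this call. Tuba1a probe 25999 read 1.89, 1.70 and 1.36 on the KO arrays, against 2.50, 2.40 and 2.51 on the WT arrays, with no overlap. The share of all probes without overlap at 0 h was not computed. The difference of this probe, -0.82 ± 0.22, was called in the fit on single probes, in which 8.59% of 20881 probes were called. That fit was run on median-centred values only. The gene difference of Tuba1a was -0.01 under quantile normalization and -0.08 under scaling of array width. The other Tuba1a probes, 4471 and 16158, differed by -0.05 ± 0.39 and -0.05 ± 0.45, and whether the 3 probes differ from each other was not tested.

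The heat shock series of Tuba1b was read by a single probe. Over 0.5, 1, 2, 3, 4, 6 and 8 h its centred log2 ratio was 2.44, 2.32, 1.5, 0.95, 0.41, 0.39 and 0.05 in KO cells. Over the same times the WT values were 3.12, 1.95, 1.70, 1.87, 1.16, 1.57 and 1.15. The KO values were lower at each later time, and from 3 h on they lay below every WT value. The WT values were lower from 1 h on than at 0.5 h and showed no steady course between 2 and 8 h.

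Tuba1a was read by 3 probes, of which 4471 and 16158 carry the same clone. Probe 25999 read 1.70, 1.63, 1.04, 0.45, 0.23, 0.19 and 0.19 in KO cells at 0.5, 1, 2, 3, 4, 6 and 8 h, and 2.41, 1.71, 1.75, 1.61, 1.26, 1.55 and 1.34 in WT cells. The KO values were below the WT values at every one of these times, as they were at 0 h. Probe 16158 read 2.42 and 2.10 in KO cells at 0 h, then 2.32, 1.81, 1.20, 0.78, 0.07, -0.02 and -0.14 at the heated times. The WT values were 2.13 and 2.50 at 0 h, then 2.58, 1.49, 1.30, 1.29, 0.92, 1.59 and 0.69. It had no value for replicate 2 of 0 h in either genotype, so there the gene's value rests on the other 2 probes. The 0 h values of probe 4471 were widely spread in WT cells. Its values in KO cells were 1.65, 0.78 and 1.37 at 0 h and 1.37, 0.98, 0.81, 0.10, -0.67, -0.90 and -0.47 at the heated times. In WT cells they were 0.85, 0.98 and 2.12 at 0 h and 0.53, 0.48, 0.32, 0.77, -0.35, 1.19 and 0.16 at the heated times. The WT values of this probe at 3 to 8 h overlapped those at 0 h.

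Tuba1c was read by 4 probes, of which 23250 and 23296 carry the same clone. Probe 546 read 2.75, 2.06 and 2.15 in KO cells at 0 h and 2.28, 1.91, 1.22, 0.78, 0.07, 0.03 and -0.12 at the heated times. The WT values were 2.17, 2.30 and 2.57 at 0 h and 2.66, 1.45, 1.29, 1.79, 0.86, 1.43 and 0.82 at the heated times. KO values were above the WT value at 1 h and below it from 2 h on. Probe 23250 read 2.41, 1.74 and 2.11 in KO cells at 0 h, then 2.24, 1.99, 1.42, 0.92, 0.21, -0.07 and -0.06. The same probe read 2.59, 2.27 and 2.55 in WT cells at 0 h, then 2.67, 1.68, 1.52, 1.46, 1.04, 1.53 and 1.01. The order of the genotypes changed between 1 and 2 h here too. Probe 23296 read 2.09, 1.51 and 1.72 in KO cells at 0 h, then 1.84, 1.74, 1.29, 0.58, -0.03, -0.53 and 0.00. WT values were 1.94, 1.46 and 1.88 at 0 h, then 2.22, 1.25, 1.21, 1.03, 0.92, 1.10 and 0.59. The KO array at 6 h was the lowest of this probe and the WT array at 0.5 h the highest. Probe 29387 read 2.81, 2.63 and 2.27 in KO cells at 0 h, then 2.50, 1.96, 1.82, 1.11, 0.53, 0.43 and 0.16. WT values were 2.88, 2.43 and 2.25 at 0 h, then 3.25, 2.00, 1.57, 1.32, 1.12, 2.20 and 1.39. Its WT array at 6 h stood above those at 3, 4 and 8 h.

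**Figure D1:**
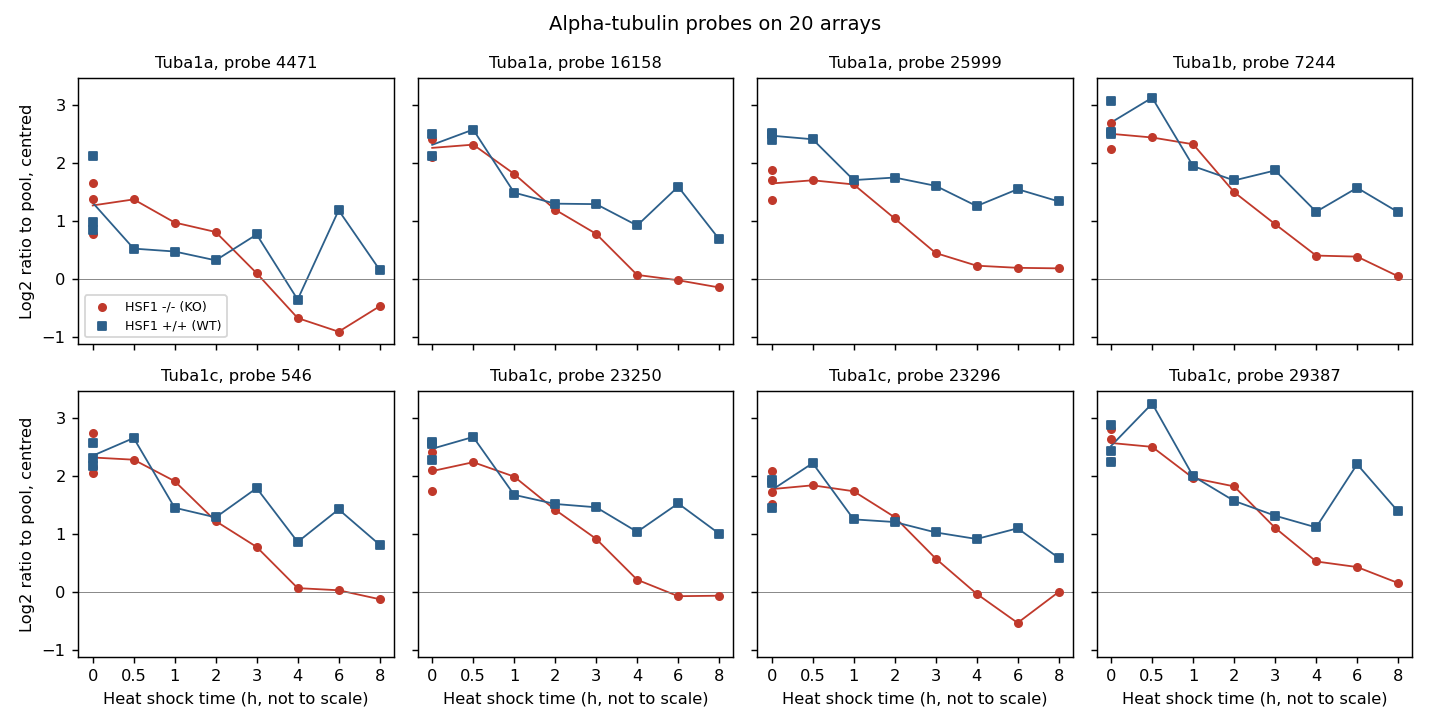
Centred log2 ratio to the pool (vertical axis) of the 8 alpha-tubulin probes by heat shock time in hours (horizontal axis, not to scale), with each array as a point and lines through the mean at each time, for KO (red circles) and WT (blue squares). From 3 h on the KO points lie below the WT points in all 8 panels, while at 0 h the genotypes overlap except for Tuba1a probe 25999.

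In the early window the mean of each member was lower than at 0 h in both genotypes, and the arrays were widely spread. In KO cells the early minus 0 h difference was -0.22 ± 0.28 for Tuba1a, -0.42 ± 0.34 for Tuba1b and -0.34 ± 0.31 for Tuba1c (SE, n = 3 against 3). In WT cells it was -0.61 ± 0.28, -0.44 ± 0.34 and -0.38 ± 0.31 for the same genes. The early arrays overlapped the 0 h arrays for each gene in both genotypes. No member was called, where limma called 0% of genes in KO cells (0 genes, with 793 at an unadjusted p under 0.05) and 0.0376% in WT cells (4 genes). The window joins unlike arrays. The WT array at 0.5 h stood 0.43 above the 0 h mean for Tuba1b and 0.42 above it for Tuba1c, while at 2 h they stood at -0.999 and -0.88. The difference between the early responses, KO minus WT, was 0.39 ± 0.40 for Tuba1a, 0.03 ± 0.49 for Tuba1b and 0.04 ± 0.44 for Tuba1c. For Tuba1b and Tuba1c the sign turned under quantile normalization (-0.21 and -0.17) and under scaling of array width (-0.27 and -0.20). No member was called, where 0% of genes were (0 genes in limma, 889 at an unadjusted p under 0.05).

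In the late window all 3 genes were lower than at 0 h in both genotypes. In KO cells Tuba1b was 4.16-fold lower (-2.06 ± 0.32 on the log2 scale, n = 4 against 3), Tuba1c 3.83-fold (-1.94 ± 0.29) and Tuba1a 3.18-fold (-1.67 ± 0.26). Ordered from the most lowered of the 10625 genes in KO cells, they stood at places 14, 20 and 36. In WT cells Tuba1b was 2.39-fold lower (-1.26 ± 0.32), Tuba1c 2.07-fold (-1.05 ± 0.29) and Tuba1a 2.00-fold (-1.0 ± 0.26). For each gene in each genotype the 4 late arrays lay below the 3 arrays of 0 h, as they did for 16.3% of all genes in KO cells and 10.6% in WT cells. All 3 members were called lower in KO cells, where 6.8% of all genes were called lower (10.7% in either direction), and all 3 in WT cells, where 3.67% were called lower (7.27% in either direction). Of the genes called, 63.8% were lower in KO cells (52.5% without centring) and 50.5% in WT cells (39.8% without centring, 39.6% under scaling of array width). The members were picked for these differences, so the counts are a description. The median log2 difference over the 3 members was -1.94 in KO and -1.05 in WT cells, beside -0.02 over all genes in each. In bulk samples, fewer cells of a type and less RNA per cell cannot be told apart.

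**Figure D2:**
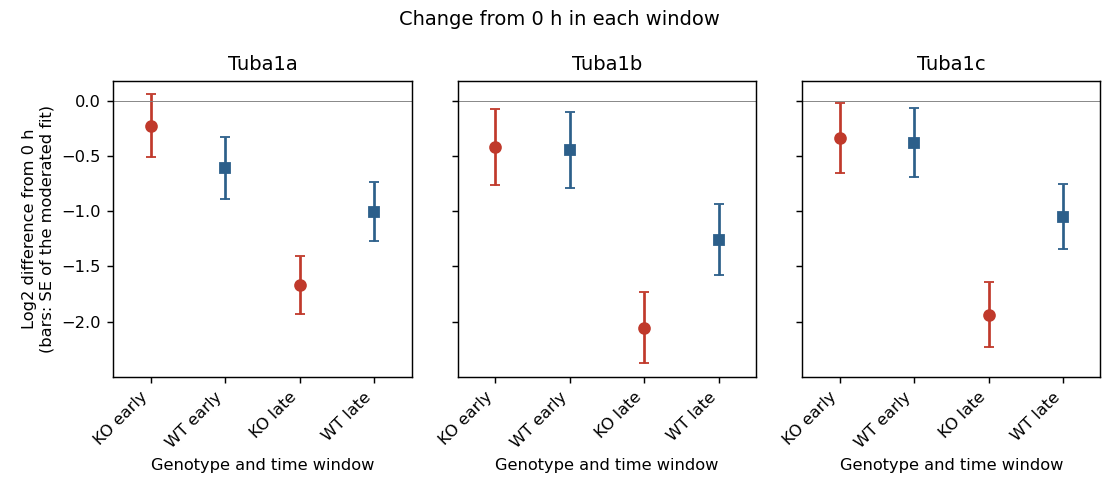
Log2 difference from 0 h (vertical axis) of Tuba1a, Tuba1b and Tuba1c in the early and late windows (horizontal axis) of KO (red circles) and WT cells (blue squares), with bars for the standard error of the fit. The late differences lie between -2.06 and -1.67 in KO cells and between -1.26 and -1.0 in WT cells.

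Single probes showed the same direction. Late minus 0 h in KO cells, the 8 probes ranged from -2.13 (probe 546) to -1.38 (probe 25999), and 8 of 8 were called in the fit on single probes, where 11.5% of 20881 probes were. In WT cells they ranged from -1.26 (probe 7244) to -0.85 (probe 23296), and 3 of 8 were called, where 7.67% of probes were. The 3 called in WT cells were 25999, 7244 and 23250, 1 for each gene. The KO calls of the members were made in every alternative run and without any single array. The runs share most arrays and the members were picked for this change, so this describes the processing and is no further test. The WT calls were lost for all 3 genes without WT 0 h replicate 3 (-0.74 for Tuba1a, -1.07 for Tuba1b and -1.03 for Tuba1c), the WT 4 h array (-0.87, -1.17 and -0.97) or the WT 8 h array (-0.91, -1.16 and -0.96), and for Tuba1c without WT 0 h replicate 1 (-0.99) or 2 (-1.13). The width of the arrays moved with the late window: the interquartile range of all probes was 0.94 to 1.16 on the late KO arrays, against 1.09 to 1.53 on the 0 h KO arrays, and 1.10 to 1.53 on the late WT arrays, against 1.47 to 1.52 on the 0 h WT arrays. With every array scaled to one width, the late differences of Tuba1a, Tuba1b and Tuba1c were -1.65, -1.95 and -1.87 in KO cells, and -0.71, -0.86 and -0.71 in WT cells, where no member was called. The WT calls numbered 2 without centring, 1 each under quantile normalization, with 1 probe per gene and without both 6 h arrays (an alternative chosen after seeing the data), and 0 with the contrasted arrays alone.

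For the members, picked on their late lowering, the late responses of the genotypes were described as a difference of differences. KO minus WT, it was -0.67 ± 0.37 for Tuba1a, -0.80 ± 0.45 for Tuba1b and -0.89 ± 0.42 for Tuba1c (n = 4 and 3 arrays per genotype). No member was called, where 0.0941% of all genes were (10 genes). Since so few genes passed, a missing call does not show that the genotypes responded alike. The spread used in the fit is pooled over all 6 groups and includes change over time within the windows. The sign was negative for each gene in all 29 alternative fits of the gene, from -0.94 to -0.44 for Tuba1a, -1.09 to -0.65 for Tuba1b and -1.17 to -0.68 for Tuba1c. These fits share most arrays, so their agreement is no test of a difference between the genotypes.

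The genotypes can also be set side by side at each time, with 1 array each and no replicate check. Relative to the 0 h difference, KO minus WT for Tuba1b was -0.49 at 0.5 h, 0.57 at 1 h, -0.01 at 2 h, -0.73 at 3 h, -0.56 at 4 h, -0.99 at 6 h and -0.91 at 8 h. For Tuba1c it was -0.40, 0.39, 0.13, -0.47, -0.70, -1.51 and -0.87 at the same times. For Tuba1a it was 0.31, 0.60, 0.24, -0.43, -0.38, -1.33 and -0.52. All 3 genes were thus above the 0 h difference at 1 h and below it at 3, 4, 6 and 8 h. The 6 h pair gave the widest gap for each gene. There the WT array stood nearer to 0 h (-0.56 for Tuba1a, -1.13 for Tuba1b and -0.71 for Tuba1c) than the WT arrays at 4 h (-1.39, -1.54 and -1.29) and 8 h (-1.27, -1.54 and -1.32). The KO array at 6 h stood at -1.89, -2.11 and -2.22, close to the KO array at 8 h (-1.79, -2.45 and -2.19).

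**Figure D3:**
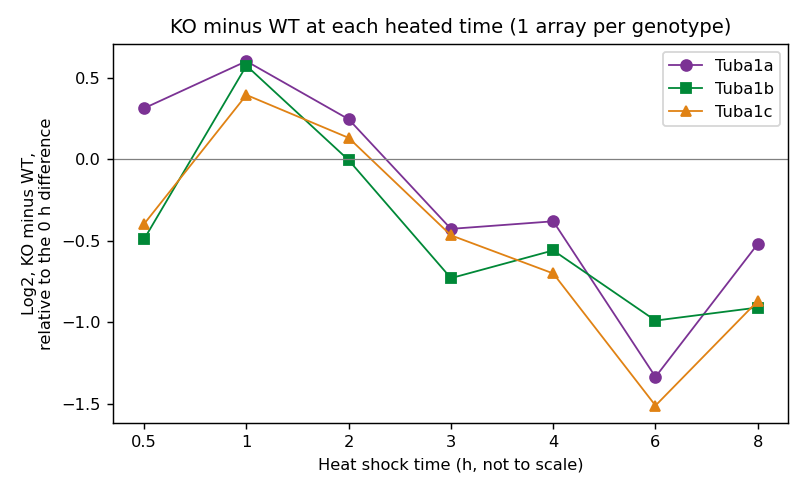
KO minus WT on the log2 scale, relative to the difference at 0 h (vertical axis), for Tuba1a, Tuba1b and Tuba1c at each heat shock time in hours (horizontal axis, not to scale), with 1 array per genotype and time. The 3 genes lie at or above 0.39 at 1 h and at or below -0.38 from 3 h on, with the widest gap at 6 h (-1.51 for Tuba1c).

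The probes tracked each other across the arrays about as closely between genes as within a gene. Over the arrays, the 19 pairs of probes from different members correlated with r of 0.78 to 0.99 (median 0.93), and the 9 pairs of the same member with r of 0.74 to 0.98 (median 0.93). These points share arrays, and the platform lists 0 probes under a member together with another gene. The probes are spotted clones of near-identical genes, so transcripts of one member may bind the probes of another. The size of this was not tested, and the values of the 3 genes are not independent.

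Of the 5 other alpha-tubulin genes listed, 2 were measured, each by 1 probe. Whether transcripts of the members bind these probes was not tested. Tuba3a, an alpha-tubulin known from testis, fell in the late window in KO cells (log2 difference -1.84 ± 0.23, n = 4 against 3, limma adjusted p = 0.000366). Its KO arrays at 3, 4, 6 and 8 h stood -1.68, -1.70, -2.16 and -1.84 from the 0 h mean, and its WT arrays -0.92, -0.62, -0.89 and -0.69. It fell in WT cells too (-0.78 ± 0.23, adjusted p = 0.0452), a call lost without any one of 13 arrays (adjusted p 0.0501 to 0.172), namely WT 0 h replicates 1 and 2, the 4 late WT arrays, the 3 KO 0 h arrays and the KO arrays of 1, 3, 4 and 8 h. It was also lost without centring (0.12), under quantile normalization (0.186), under scaling of array width (0.213), with the contrasted arrays alone (0.196) and without both 6 h arrays (0.102). The difference between its responses was -1.06 ± 0.32 (adjusted p = 0.372). Tuba8 was not called, at -1.13 ± 0.56 in KO and -0.18 ± 0.52 in WT cells (adjusted p = 0.215 and 0.862).

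Beta-tubulins, the partners in the subunit, were measured for 6 of 8 listed genes, and their late median was -0.69 in KO and -0.40 in WT cells. Tubb4b was not among the 6, and its probes shared with another gene, which fell further, are described at the end. In KO cells 3 of 6 fell and 0 rose, where 6.8% of all genes fell and 3.86% rose, and in WT cells 1 of 6 fell and 0 rose, where 3.67% fell and 3.6% rose. These late shares of all genes are also the background of the lists that follow. Tubb5, a beta-tubulin of many cell types, fell in both genotypes (-1.05 ± 0.18 in KO, adjusted p = 0.0017, and -0.89 ± 0.18 in WT, adjusted p = 0.00977). Its late arrays stood at -0.93, -1.18, -0.94 and -1.16 in KO and at -0.71, -1.15, -0.70 and -0.99 in WT cells. The WT call of Tubb5 was lost under scaling of array width and with the contrasted arrays alone (adjusted p = 0.0575 in each). Tubb2a fell in KO cells (-1.35 ± 0.21, adjusted p = 0.000868), with late arrays at -0.95, -1.5, -1.61 and -1.36. In WT cells its late arrays stood at -0.51, -0.43, 0.03 and -0.66, and the mean of -0.39 ± 0.21 was not called (adjusted p = 0.262). The difference between the responses of Tubb2a was -0.96 ± 0.30, which did not pass (adjusted p = 0.398). Tubb6 fell in KO cells (-0.85 ± 0.24, adjusted p = 0.0323), a call lost without KO 0 h replicate 1 or 3 or the KO array of 4, 6 or 8 h (adjusted p 0.0546 to 0.132) and without both 6 h arrays (0.102). Its WT value was -0.73 ± 0.24 (adjusted p = 0.0786). Tubb2b was not called in either genotype (-0.54 ± 0.23 in KO, -0.42 ± 0.23 in WT), nor were the platelet-lineage gene Tubb1 (0.14 ± 0.22 and 0.23 ± 0.25) and the neuronal gene Tubb3 (0.37 ± 0.24 and 0.18 ± 0.24). No alpha- or beta-tubulin gene of these lists was called at 0 h, in an early window or in a difference between responses.

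**Figure D4:**
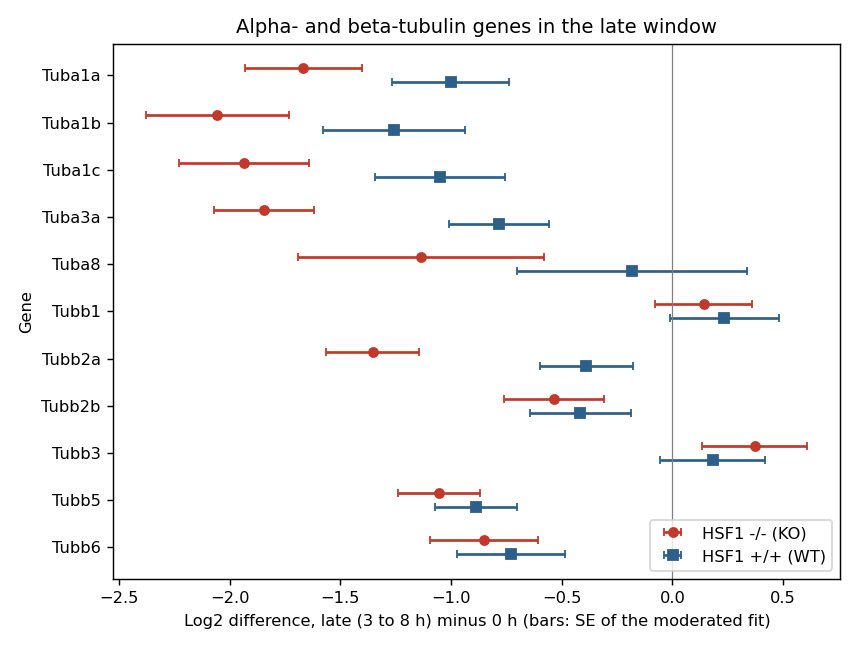
Log2 difference, late minus 0 h (horizontal axis), of each measured alpha- and beta-tubulin gene (vertical axis) in KO (red circles) and WT cells (blue squares), with bars for the standard error of the fit. Among the genes shown, the 3 members and Tuba3a lie lowest in KO cells (-2.06 to -1.67), and Tubb1 and Tubb3 lie above 0 in both genotypes. The probes listed under both Tubb4b and Fam166a are not shown. They ranged from -2.51 to -1.53 in KO and from -2.05 to -1.47 in WT cells.

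Genes that fold tubulin were measured for 19 of 22 listed. At 0 h 5 of the 19 were lower in KO cells and 0 were higher (median -0.46), where 3.6% of all genes were lower and 3.04% higher, led by subunits of the CCT chaperonin and of prefoldin. The 4 of smallest p were Cct6a (-1.13 ± 0.25, limma adjusted p = 0.00935), Cct3 (-0.74 ± 0.18, 0.016), Tcp1 (-0.97 ± 0.24, 0.0221) and Vbp1 (-1.0 ± 0.25, 0.023). Only Cct6a kept its call without any single array, and over 7 other settings Cct6a lost it in 2, Cct3 in 5, Tcp1 in 2 and Vbp1 in 4 (adjusted p 0.0542 to 0.238), each with the contrasted arrays alone and with 1 probe per gene among them. Leaving out KO 0 h replicate 2 or 3 ended the call of Cct3 (0.0585 and 0.0697), and likewise that of Tcp1 and Vbp1. For Tcp1 WT 0 h replicates 1 and 2 did so too (adjusted p 0.0506 to 0.0936 over the 4 arrays), and for Vbp1 WT 0 h replicate 3 (0.0509 to 0.101 over the 3 arrays). In the late window 3 of 19 fell in KO cells and 0 rose (median -0.42), and 1 of 19 fell in WT cells and 0 rose (median -0.32), beside 6.8% of all genes that fell in KO and 3.67% in WT cells. Cct3 fell in KO cells (-1.02 ± 0.17, adjusted p = 0.001) and had -0.31 ± 0.17 in WT cells (0.258). Arl2, a small GTPase that works with the tubulin cofactors, fell in KO cells (-0.69 ± 0.14, 0.00501) and in WT cells (-0.49 ± 0.14, 0.0455). Its WT call was lost without any one of 15 arrays (adjusted p 0.0527 to 0.15): all arrays of the contrast but WT 3 h, the 3 KO 0 h arrays, WT 1 h and the KO arrays of 1, 3, 4, 6 and 8 h. It was also lost in 7 of 8 other settings (0.0561 to 0.198). Cct8 fell in KO cells (-0.61 ± 0.18, 0.0318), a call lost without any one KO 0 h array, without the 6 or 8 h array of either genotype (0.0683 to 0.111) and in 5 of 8 other settings (0.0588 to 0.22).

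The remaining lists moved in few members. Of 2 measured genes of the pathway by which tubulin mRNA is cleared, Scaper was higher in KO cells at 0 h by 1.03 ± 0.26 (limma adjusted p = 0.0203), lost without KO or WT 0 h replicate 1 or 3 (0.0549 to 0.0866) or with the contrasted arrays alone (0.122), and neither was called after heat. Of 7 genes of gamma-tubulin and nucleation and 10 enzymes that modify tubulin, 0 were called in any of the 7 comparisons. Of 20 proteins that bind microtubules, 1 was called in each late window. This was Mapre1, which encodes the plus-end protein EB1, which fell in KO cells (-0.68 ± 0.15, adjusted p = 0.00791, or 0.0522 without KO 0 h replicate 1) and in WT cells (-0.53 ± 0.15, 0.0426). The WT call was lost without any one of 11 arrays (0.0518 to 0.105): the 3 WT 0 h arrays, WT 4, 6 and 8 h, KO 0 h replicate 2 and the 4 late KO arrays. It was also lost in 7 of 8 other settings (0.0963 to 0.172). Of 18 motor proteins, 2 fell and 1 rose late in KO cells, and 1 fell and 1 rose late in WT cells, counts near the shares of all genes given above. The dynein light intermediate chain gene Dync1li1 rose by 0.76 ± 0.15 in KO cells (0.00443) and by 0.63 ± 0.15 in WT cells (0.0211). Its WT call was lost without WT 0 h replicate 2 (0.0561) or WT 8 h (0.0649), with 1 probe per gene (0.418) and with the contrasted arrays alone (0.105). The dynein intermediate chain gene Dync1i2 fell in KO cells (-0.96 ± 0.24, 0.0171) and in WT cells (-1.12 ± 0.24, 0.012). Its KO call was lost without KO 0 h replicate 1 or KO 8 h (0.0509 to 0.0859) and without both 6 h arrays (0.0559), and its WT call with the contrasted arrays alone (0.148). The kinesin-2 gene Kif3a fell late in KO cells (-0.71 ± 0.19, 0.0254) and was higher in KO cells at 0 h by 0.92 ± 0.21 (0.0113). Kif3a lost the late call without KO 0 h replicate 1 or 3, KO 3 h or WT 0 h replicate 1 or 2 (0.0655 to 0.13) and in 5 of 8 other settings (0.055 to 0.478), and the 0 h call without KO 0 h replicate 1 or 3 or WT 0 h replicate 1 or 2 (0.0507 to 0.125) or with the contrasted arrays alone (0.138).

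The genes whose course over the 20 arrays was most like that of the members were named by Pearson's r among 9456 genes with a value on every array. Gsn, which encodes the actin-severing protein gelsolin, came first for all 3 (r = 0.97 for Tuba1a, 0.97 for Tuba1b and 0.96 for Tuba1c), followed by Cd81, a tetraspanin of the cell surface (0.96, 0.97 and 0.96). Next for Tuba1a came Ckap4 (0.94), the myosin light chain gene Myl9 (0.94) and Sumo3 (0.93). For Tuba1b these were Arl2 (0.95), Tubb5 (0.94) and Myl9 (0.94), and for Tuba1c Tmbim6 (0.94), Ckap4 (0.94) and Arl2 (0.94). The late differences of Gsn and Cd81 were nearer to 0 than the members', at -0.85 ± 0.17 and -1.23 ± 0.23 in KO cells and -0.49 ± 0.17 and -0.58 ± 0.23 in WT cells. The points share arrays and groups, and r above 0.9 was reached by 25 genes for Tuba1a, 32 for Tuba1b and 34 for Tuba1c. With Spearman's rho 2, 3 and 2 of each 5 stayed, and under quantile normalization 4, 3 and 2.

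Marker genes of cell types were also called in some comparisons. At 0 h 2 of 9 measured fibroblast markers were higher in KO cells and 1 was lower, where 3.04% of all genes were higher and 3.6% lower. Pdgfra, a growth factor receptor of fibroblasts, was higher in KO cells by 1.36 ± 0.20 (limma adjusted p = 0.000434), a call kept without any single array and in the other settings run. The collagen gene Col3a1 was higher by 0.53 ± 0.14 (0.0265), lost without KO 0 h replicate 1 or 2 or WT 0 h replicate 3 (0.0536 to 0.0985) and with the contrasted arrays alone (0.222). The fibronectin gene Fn1 was lower (-0.71 ± 0.20, 0.0351), lost without any one of the 6 arrays of 0 h (0.0514 to 0.115) and in 4 of 7 other settings (0.0543 to 0.17). Of 4 macrophage markers Cd68 was lower in KO cells at 0 h (-0.83 ± 0.22, 0.0299), lost without KO 0 h replicate 2 or 3 or WT 0 h replicate 1 (0.069 to 0.136) and in 4 of 7 other settings (0.0557 to 0.165).

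In the late windows 1 of the 9 fibroblast markers fell in KO cells (median -0.32) and 1 in WT cells (median -0.39), where 6.8% and 3.67% of all genes fell. The collagen gene Col1a2 fell in KO cells (-0.59 ± 0.17, limma adjusted p = 0.0293), a call lost without KO 0 h replicate 1 or 2 or KO 6 or 8 h (0.0683 to 0.174) and in 3 of 8 other settings (0.0589 to 0.116). Pdgfra fell in WT cells (-0.63 ± 0.19, 0.0483), a call lost without any one of 14 arrays (0.0523 to 0.152): the 3 KO 0 h arrays, the KO arrays of 0.5, 1, 2, 3, 4 and 6 h, WT 0 h replicates 1 and 2, and WT 1, 6 and 8 h. It was also lost in 7 of 8 other settings (0.0501 to 0.176). Of 8 neuronal markers and 5 epithelial markers, 0 were called late in either genotype. Of 5 muscle markers 1 fell in KO cells, Acta1 (-1.11 ± 0.24, 0.00648), a call kept without any single array. Of 4 macrophage markers 1 rose in KO cells, Lyz2 by 0.66 ± 0.20 (0.0451). That call was lost without any one of 10 arrays (0.0503 to 0.129): the 3 KO 0 h arrays, KO 1, 2, 4, 6 and 8 h and WT 4 and 6 h. It was also lost in 7 of 8 other settings (0.0519 to 0.448). The part of these markers in the tubulin values was not tested.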

How the data were processed

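The deposited values of the 20 arrays are log ratios of the Cy5 sample over the Cy3 common pool, 1 per probe and array, with the dyes as given per the labels. The deposited values were treated as log2, an assumption, since the log base is not stated. The base and the authors' background correction, spot filters and normalization are not given in the sources used here, and spot intensities were not used here. Array medians ran from -0.53 to -0.18, and each array was centred on its median. Of 42624 probes, 21701 list 1 gene, 1124 list several and 19799 list none in the platform annotation, and 3.28% of values were missing. Probes with fewer than 2 values in any of the 6 groups were left out, and 20881 probes of 1 gene, for 10625 genes, remained. Linear models were fitted with limma 3.58.1 in R 4.3.3 (lmFit and eBayes), 2-sided, over all 20 arrays with 7 contrasts and p-values adjusted by Benjamini-Hochberg within each contrast over every gene tested. The model was tested on simulated data. Replicate numbers and times did not pair the arrays (r of -0.02 to 0.05 between deviations of same-numbered arrays). The members, the gene lists and the contrasts were chosen with earlier results of these data known. Named were the members, Hspa1a as a check of the labels, of each list the genes past the threshold (up to 4 of smallest p per contrast), and the 5 genes most alike to each member. Marker genes and probes listing several genes were named after their values were seen. Alternatives changed the centring, the probes per gene, the filter, the arrays fitted, a block for number and time, and single arrays. Sequences are from RefSeq, and positions count back from the base before the annotated start.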

Additional observations from a re-analysis of the deposited data

Results flagged for a closer look

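The genotypes differed in the late response of the HSP70 genes that served as a check of the labels, by the test of the difference itself. For Hspa1a, KO minus WT was -5.84 (limma adjusted p = 0.0438, n = 4 and 3 arrays per genotype), a call lost without any one of 18 of the 20 arrays (0.0515 to 0.129), without centring (0.0609), with 1 probe per gene (0.0569) and without both 6 h arrays (0.2). Its value stayed between -6.11 and -5.65 with 1 array left out. The call was kept with the contrasted arrays alone and without WT 0.5 h or WT 2 h. The lowest limma adjusted p with 1 array left out was 4.52e-06. The WT arrays of 0.5, 1 and 2 h, which enter the pooled spread, stood 0.58, 4.55 and 5.80 above the 0 h mean. For Hspa1b, KO minus WT was -5.80 (adjusted p = 0.0438), with values of -6.03 to -5.54 with 1 array left out. The Hspa1b call was lost without any one of 14 of 18 arrays that could be left out (0.0511 to 0.129). It was also lost without centring (0.0598), with 1 probe per gene (0.0541) and without both 6 h arrays (0.2). Its lowest adjusted p with 1 array left out was 6.13e-06. In 22 groups of 4 late arrays, examined per member gene or probe and genotype, 0 arrays stood apart from the other 3, where chance would mark about 1 in 20.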

How the results depend on the processing

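Over 594 repeats of the members' differences with another setting or 1 array left out, all 594 stayed within 1 SD of the value reported. The SD is the residual SD of the gene between arrays. A change of sign within it counted as staying, as for Tuba1b and Tuba1c at 0 h under quantile normalization, so the tally does not show stable signs. Single probes of Tuba1a moved further: -0.823 for probe 25999 at 0 h and -2.088 for probe 16158 in the late KO window. The 3 members called in the late KO window stayed 3 in every alternative run, and these runs share most arrays. In the late WT window 1 was called under quantile normalization, 0 under scaling of array width, 1 with 1 probe per gene, 0 with the contrasted arrays alone and 1 without both 6 h arrays, and 0 to 3 with 1 array left out. Without centring, the median of all genes stood at 0.16 for KO minus WT at 0 h, 0.19 for WT early and -0.31 for the difference of early responses. Relative to it, the members' values for the last were 0.43, 0.07 and 0.09 for Tuba1a, Tuba1b and Tuba1c. Counts of all genes called moved more. At 0 h, 705 became 88 with the contrasted arrays alone and 448 with the replicate block (423 without KO 0 h replicate 3, to 770 with 1 array left out). For WT early, 4 became 1 without centring, 2 under quantile normalization, 0 under scaled width, 2 with 1 probe per gene, 2 with probes on all arrays, 8 with at least 1 value per group, 0 with the contrasted arrays alone and 10 without both 0.5 h arrays (0 to 18). For WT late, 772 became 462 under quantile normalization, 371 under scaled width, 153 with the contrasted arrays alone and 319 without both 6 h arrays (385 without WT 8 h, to 887). For KO early, 0 became 1 with at least 1 value per group and 5 without both 0.5 h arrays (0 to 6). For KO late, 1133 became 627 without both 6 h arrays (523 without KO 0 h replicate 1, to 1284). For the difference of early responses, 0 became 1 with probes on all arrays, 1 with at least 1 value per group and 5 without both 0.5 h arrays (0 to 5). For the difference of late responses, 10 became 0 without centring, 1 with 1 probe per gene, 0 with the replicate block and 0 without both 6 h arrays (0 to 18). With the replicate block, which the tallies of other settings above leave out, the 0 h calls of Tcp1 (adjusted p = 0.0624), Vbp1 (0.0563), Scaper (0.0843), Kif3a (0.0583), Col3a1 (0.105) and Fn1 (0.0858) and the late-response calls of Hspa1a and Hspa1b (0.136 each) were lost. Heated arrays of equal time share the duration of heat shock, while 0 h arrays of equal number share only that number. The cause of these changes was not tested.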

Other observations

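Beta-tubulin transcripts were also read by probes outside the gene tests. The platform lists 4 probes under Tubb4b, a beta-tubulin found in many tissues, together with Fam166a, so their signal belongs to either gene. Their mean centred log2 ratio was 1.73, 1.26 and 1.69 on the KO arrays of 0 h, then 1.39, 0.89, 0.46, -0.29, -0.83, -0.83 and -0.76 over 0.5, 1, 2, 3, 4, 6 and 8 h. The WT arrays read 1.68, 1.82 and 1.75 at 0 h, then 2.04, 0.88, 0.32, 0.24, -0.23, 0.13 and -0.39. This mean was lower on all late arrays than on all 0 h arrays in both genotypes. The share of all probes for which this held was not computed. All 4 probes were called lower in both late windows in a fit on 40453 probes. There 2954 probes were called lower in KO cells and 1873 in WT cells. In either direction, 13.9% of probes were called in KO and 10.6% in WT cells. These probes are not part of the beta-tubulin medians given above. Late minus 0 h, the 4 probes ranged from -2.51 to -1.53 in KO cells and from -2.05 to -1.47 in WT cells, and KO minus WT of these differences ranged from -0.64 to -0.06. 1 further probe lists the alpha-tubulin gene Tuba4a together with Stk16, and its late difference was -1.27 ± 0.33 in KO and -0.27 ± 0.33 in WT cells.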
